A study of Homo sapiens with 12 samples.

Results

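The response of THP-1 monocytic cells to 2 h of lipopolysaccharide (LPS, a component of the outer membrane of Gram-negative bacteria) was measured at 5% CO2, the ordinary culture level. The comparison set 3 libraries from cells given LPS against 3 libraries from cells left without it, chosen by their sample titles, and so used 6 of the 12 libraries of the study. It covered every gene of the count tables: 57500 gene identifiers, of which 16402 had enough counts in the study to be tested. THP-1 is an established human monocytic leukaemia line, so the data describe a dividing, transformed cell line and not blood monocytes. The study kept these cells at 5% or 10% CO2 in buffered medium to ask how raised CO2 alters monocyte transcription.

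All groups carried the same lentiviral non-target shRNA, grew in buffered DMEM with 10% serum, and spent 4 h in a gas chamber. The groups compared here were 5% CO2 (no LPS, called resting below) and 5% CO2 with LPS, where 2.5 µg/ml LPS was present for the last 2 h. The 10% CO2 groups, with and without LPS, entered the fit through the choice of genes tested, the scaling and the shared estimate of spread. They were also used in 1 closing comparison. With the 6 libraries alone, 15711 genes were tested. The labels do not state whether a group's 3 libraries came from different cultures, and p-values here therefore reflect library-to-library spread alone, possibly of technical origin.

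As background, LPS is handed by CD14 to TLR4 with its partner MD-2, and the adaptors MyD88 and TRIF then switch on IκB kinase, MAP kinases and the kinase TBK1. IκB kinase frees NF-κB, a family of dimeric transcription factors held in the cytoplasm by IκB proteins, and NF-κB induces cytokines and chemokines together with its own inhibitors. In monocytes these early genes are followed by interferon-stimulated genes, which depend on interferon-β made by the same cells.

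The 6 libraries held 17132910 to 21602737 gene counts. A floor of 3 counts in 1 library corresponded to 0.139 to 0.175 CPM (the count of a gene divided by the library total in M). CPM values below are scaled with TMM factors, which correct library size for a few very abundant genes. The resting libraries had a count for 26241 to 26590 genes, and the LPS libraries for 30447, 27668 and 26709 (replicates 1 to 3), so LPS replicate 1 stood apart. Monocyte and granule genes were present throughout: the 15 marker genes summed to 5305 to 7101 CPM at rest and 5500 to 6878 CPM with LPS. Named after their values were seen, the granule genes ELANE, AZU1, CTSG and PRTN3 supplied most of this sum in every library. CD68 had only 25 to 42 counts per library. Of the 15 markers, 2 rose and 2 fell, and CEBPA, treated below, was among those that fell. CD14 itself was low, at 15.6, 9.10 and 7.98 CPM at rest and 12.2, 6.36 and 6.69 CPM with LPS. The groups overlapped and CD14 was not called (adjusted p = 0.469). Defining markers of lymphoid and erythroid cells were at or near 0: the 7 T cell markers summed to 1.81 to 2.26 CPM at rest and 1.97 to 2.89 CPM with LPS, the B cell marker MS4A1 had 0 counts in all 6 libraries, and the 5 erythroid markers together had at most 3 counts per library. The 5 fibroblast markers summed to 1.65 to 2.44 CPM at rest and 2.89 to 3.90 CPM with LPS. Within them, and named after their values were seen, LUM and DCN rose, while COL1A2 had 0 to 2 counts in any library. The part of other cells in the results below was not tested. The mRNAs of the mitochondrial genome supplied 1.55% ± 0.339 of counts at rest and 1.53% ± 0.246 with LPS (SD, n = 3). This difference was within the spread (exact two-sided permutation p = 0.9, where 3 against 3 cannot go below 0.1).

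LPS induced a set of inflammatory genes very strongly and lowered a similar number of genes by smaller amounts. IL1B, the precursor of interleukin-1β, rose 197-fold, CXCL8, the neutrophil chemoattractant interleukin-8, 214-fold, and SOD2, the mitochondrial superoxide dismutase, 93.4-fold. On the other side CCR2, the receptor for the monocyte chemokine CCL2, fell 12.4-fold and MYC, the growth-promoting transcription factor, 6.68-fold. In all, 4092 genes (24.9% of those tested) were called at an adjusted p under 0.05 by edgeR's quasi-likelihood test, 1940 higher with LPS (11.8%) and 2152 lower (13.1%). The 3 LPS values lay wholly above or below the 3 resting values for 6434 of the genes tested (39.2%). Changes in such bulk libraries cannot tell fewer cells of a kind from less RNA per cell.

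The size of change was lopsided. Of the called genes, 766 rose at least 2-fold (4.67% of those tested) and 514 fell at least 2-fold (3.13%). At 4-fold the counts were 430 (2.62%) and 70 (0.427%), at 8-fold 260 (1.59%) and 10 (0.061%), and at 32-fold 92 (0.561%) and 0. A test that the change itself exceeds 2-fold (edgeR glmTreat) was passed by 577 genes (3.52%), 481 of them higher (2.93%) and 96 lower (0.585%). The other side of this is that 2812 of the 4092 called genes (68.7%) changed by less than 2-fold. The balance of small changes depends on scaling. With library size alone in place of TMM factors, the median of all genes moved by -0.17 on the log2 scale, and 21.7% of calls were higher with LPS against 47.4% with TMM. Small changes below are therefore relative to a centre that the scaling sets.

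**Figure D1:**
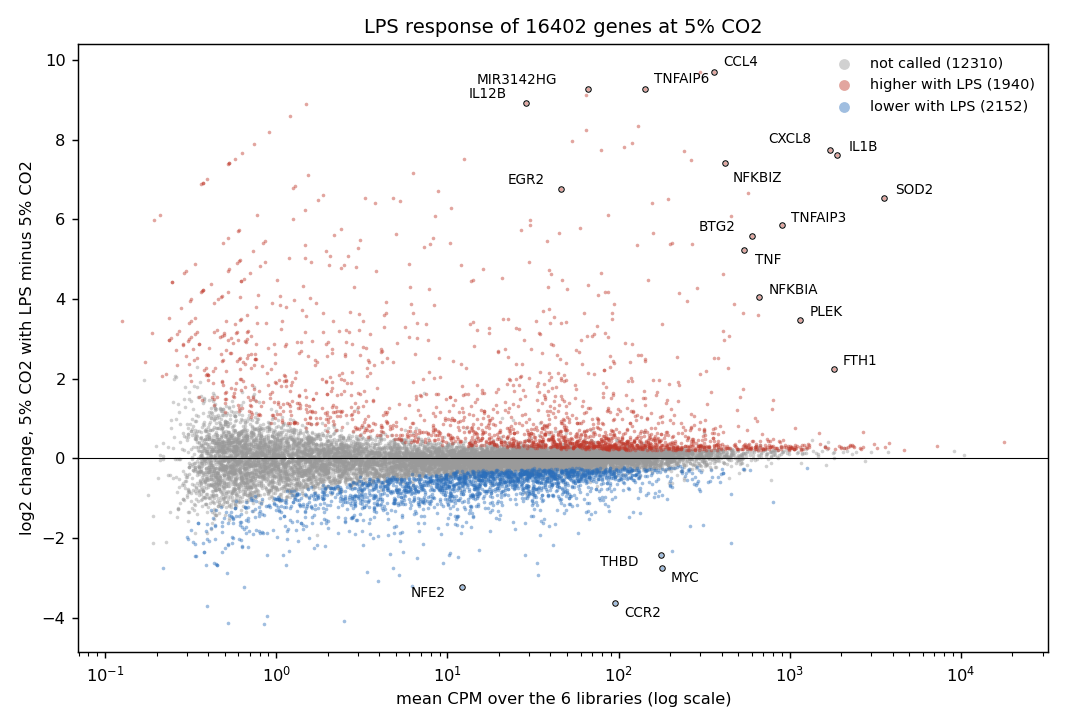
Log2 change of each of 16402 genes (vertical axis, 5% CO2 with LPS minus 5% CO2) against its mean CPM over the 6 libraries (horizontal axis, log scale). Red points are the 1940 genes called higher and blue points the 2152 called lower; the rises reach further from 0 than the falls, with SOD2, IL1B and CXCL8 combining a large change with a high level.

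Induced transcripts took up a visible part of the whole library. The 430 genes that rose at least 4-fold supplied 0.404% ± 0.0290 of all counts at rest and 5.28% ± 0.433 with LPS (SD, n = 3). SOD2, IL1B and CXCL8 alone went from 0.0118% ± 0.00129 to 1.35% ± 0.172. All 2152 fallen genes together went from 9.63% ± 0.0708 to 5.76% ± 0.343. These shares describe genes selected on the same libraries and carry no test. Ranked by CPM per kilobase of exon, which allows levels of different genes to be compared, CXCL8 moved from rank 5689 at rest to rank 14 with LPS, IL1B from 6128 to 23, and TNF from 2647 to 57.

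Among cytokines, the early inflammatory set rose together. Of 24 tested members of the list of proinflammatory cytokines, 17 rose and 4 fell, with a median log2 change of 2.32 against -0.01 over all genes tested. IL1B stood at 21.96, 16.04 and 19.5 CPM at rest and 4555, 3274 and 3518 CPM with LPS. The 3 LPS libraries were all far above the resting ones, and the log2 change was 7.62 ± 0.20 (SE, adjusted p = 1.7e-12). TNF, the cytokine that triggers NF-κB through its own receptor, stood at 31.2, 31.9 and 21.1 CPM at rest and 1110.0, 1042 and 1007 CPM with LPS, a log2 change of 5.23 ± 0.29 (adjusted p = 3.88e-07). TNF was already measurable in every resting library and its 3 LPS libraries lay close together. IL1A, the second interleukin-1 gene, went from 0.942 ± 0.247 to 214 ± 64.8 CPM. IL12B, the shared p40 subunit of interleukins 12 and 23, went from 0.113 ± 0.0215 to 57.6 ± 5.63 CPM, and IL23A, the p19 subunit specific to interleukin-23, from 3.65 ± 0.334 to 309 ± 75.1 CPM (SD, n = 3). IL12A, the p35 subunit specific to interleukin-12 and chosen after its values were seen, went from 0.380 to 0.155 CPM (log2 change -1.26, 5, 9 and 9 counts at rest and 1, 8 and 0 with LPS) and was not called, so both subunit genes of interleukin-23 rose while 1 subunit gene of interleukin-12 did. EBI3, the β subunit of interleukin-27, was also chosen after its values were seen and rose from 0.247 to 16.7 CPM. Per kilobase, IL1B reached 1222 CPM and TNF 628 CPM with LPS, against 20.9 CPM for IL12B.

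Not every cytokine followed. TNFSF14, a TNF family ligand also called LIGHT, fell from 48.2 ± 10.2 to 9.01 ± 1.53 CPM, with a log2 change of -2.42 ± 0.17. IL16, a chemoattractant cytokine for CD4-bearing cells, went from 5.95 ± 0.603 to 0.822 ± 0.375 CPM, -2.86 ± 0.27 on the log2 scale. The groups did not overlap for either gene. TNFSF13B (BAFF) and TNFSF10 (TRAIL) were the other 2 members that fell and are named for that reason after their values were seen, by 1.06 and 0.67 on the log2 scale. Of the 5 tested anti-inflammatory cytokines and decoys, 0 were called by edgeR or DESeq2 (1 rose with the replicate block or without LPS replicate 2, and 1 fell with library size alone or without LPS replicate 1), and 1 had an unadjusted p under 0.05 with edgeR. Their log2 changes lay between -0.33 and 0.34. IL10, the main anti-inflammatory cytokine of monocytes, had 2, 1 and 0 counts at rest and 2, 8 and 3 with LPS, too few to be tested.

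**Figure D2:**
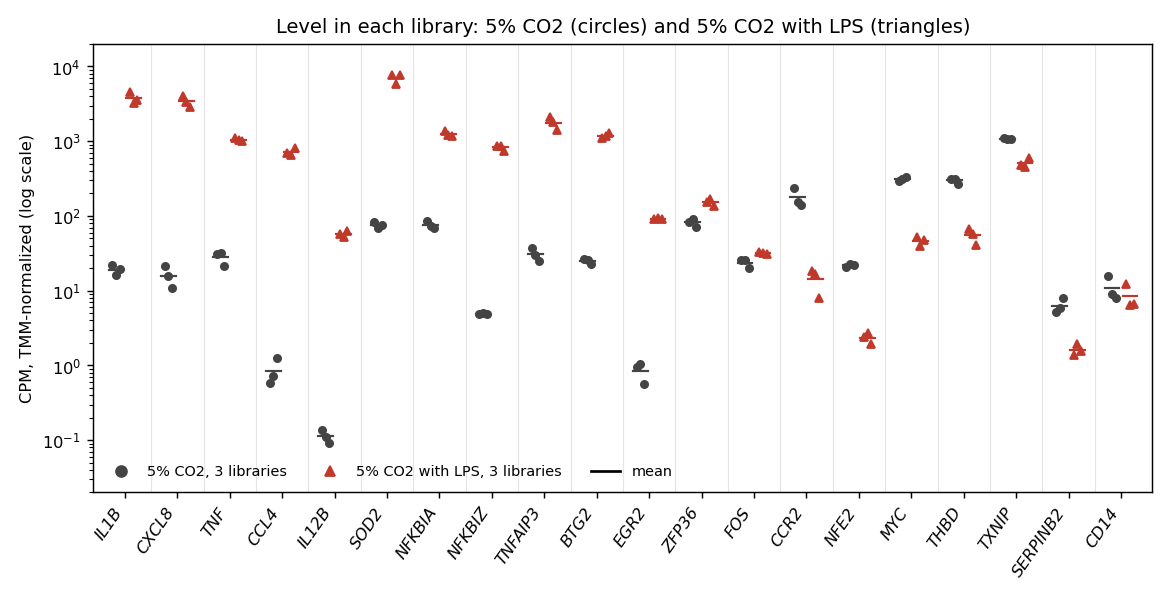
CPM in each of the 6 libraries (log scale) for 20 genes named in the text; circles are the 3 resting libraries, triangles the 3 libraries with LPS, and bars the group means. The circles and triangles are far apart for IL1B, CXCL8 and CCL4, close for ZFP36 and FOS, reversed for CCR2, NFE2, MYC, THBD, TXNIP and SERPINB2, and mixed for CD14.

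A few genes were switched on from no detected transcript. Altogether 15 tested genes had 0 counts in all 3 resting libraries, and all 15 were called higher. The filter on low counts largely fixes that direction, since such a gene passes it only through libraries where it is detected, so the count is a description. IL6, a cytokine of the acute phase response, had 43, 15 and 29 counts with LPS, at least 30.5-fold higher than a floor of 3 counts over the resting group. CSF3, the granulocyte growth factor G-CSF and chosen after its values were seen, had 33, 25 and 50 counts, at least 37.5-fold higher. IFNB1, which encodes interferon-β, had 10, 19 and 15 counts, at least 15.4-fold higher. These transcripts stayed rare: the LPS means were 1.48 CPM for IL6, 1.82 CPM for CSF3 and 0.746 CPM for IFNB1. The highest of the 15 with a symbol, chosen after its values were seen, was CD44-DT, a divergent transcript at CD44, with 50, 48 and 44 counts. LUM, the fibroblast marker above, and IGKC, an immunoglobulin light chain gene, were chosen likewise and were also among the 15, with 15, 10 and 22 and with 13, 16 and 33 counts. Conversely, 0 tested genes had 0 counts in all 3 LPS libraries. A further view of low starting levels is that 71 risen genes had at most 3 counts over the resting group.

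Chemokines, small secreted proteins that attract leukocytes, mostly rose. Of 10 tested CXC chemokines 9 rose, with a median log2 change of 7.43, and of 12 tested CC chemokines 8 rose and 1 fell, with a median of 4.98. These medians cover only the members that passed the filter on low counts, which a gene silent at rest can pass through the LPS libraries alone. Without the filter they were 3.07 and 0.86, and with DESeq2 the CC median was 3.48. Most lie in a pair of gene clusters. On chromosome 4 the CXC cluster (GRCh38, 73740506 to 77611834) holds 13 listed genes, of which 8 rose and 5 had too few counts to be tested. CXCL8 stood at 21.4, 15.7 and 10.7 CPM at rest and 4022, 3352 and 2899.9 CPM with LPS, 7.74 ± 0.25 on the log2 scale (adjusted p = 5.97e-10). CXCL1, CXCL2 and CXCL3, neutrophil attractants that share the receptor CXCR2, went from 0.987 to 239, 0.769 to 259.7 and 0.217 to 128 CPM. Their neighbour CXCL6, of the same receptor family, rose only to 2.49 CPM (2.93 ± 0.52 on the log2 scale, adjusted p = 0.000486), and CXCL5, which lies between them, had 0 counts in 5 libraries and 3 counts in LPS replicate 1. CXCL9, CXCL10 and CXCL11, which are attractants for T cells and are known as interferon targets, sit further along. CXCL10 stood at 0.316, 0.441 and 0.511 CPM at rest and 89.6, 94.7 and 199.6 CPM with LPS. CXCL9 had 0, 0 and 1 counts at rest and 46, 35 and 102 with LPS. All 3 of these genes were highest in LPS replicate 3, each more than 2-fold above the other LPS libraries, and the SE of CXCL10, 0.61, was the largest among the 15 genes with the largest rises.

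The 11 genes for which promoter sequence is printed here were chosen because their transcripts rose and most hold a match to the NF-κB consensus; sequences are from RefSeq on GRCh38.p14, 5′ to 3′, ending at the base before the annotated start, in lower case with matches in capitals. For a gene with several annotated starts, a window with a match was shown wherever there was any, so the match was part of the choice. The first 5 genes printed are chemokines of the chromosome 4 cluster. The CXCL8 window (chr4:73740469-73740568, plus strand) held no match to the consensus letters. These are GGG, A or G, any 2 bases, C or T 2 times, and CC, on either strand. The CXCL8 stretch tggaatttcc differs from the matching GGGAATTTCC of CXCL1 only in its first letter. The CXCL6 (chr4:73836578-73836677, plus), CXCL1 (chr4:73869293-73869392, plus), CXCL3 (chr4:74038690-74038789, minus) and CXCL2 (chr4:74099196-74099295, minus) windows each held 2 overlapping matches in 1 run of letters, which begins 90 bases before the start in CXCL6, 79 in CXCL1 and CXCL3 and 78 in CXCL2.
CXCL8: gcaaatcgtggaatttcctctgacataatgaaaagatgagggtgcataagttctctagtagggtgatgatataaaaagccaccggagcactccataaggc
CXCL6: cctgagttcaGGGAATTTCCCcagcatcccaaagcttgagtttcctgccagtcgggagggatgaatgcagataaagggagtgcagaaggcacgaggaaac
CXCL1: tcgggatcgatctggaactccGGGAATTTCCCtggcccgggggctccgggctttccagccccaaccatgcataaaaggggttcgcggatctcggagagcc
CXCL3: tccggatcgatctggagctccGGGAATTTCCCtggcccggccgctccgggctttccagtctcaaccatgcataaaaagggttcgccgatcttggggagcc
CXCL2: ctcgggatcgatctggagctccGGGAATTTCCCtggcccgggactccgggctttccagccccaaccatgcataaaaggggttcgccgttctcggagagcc
The capital run is the same in the 4 genes that have it, although CXCL6 rose by 2.93 and CXCL3 by 9.11 on the log2 scale. CXCL8, without an exact match to the letters in this window, rose by 7.74. The match is a description of letters and not of binding.

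On chromosome 17 the CC cluster (GRCh38, 34255218 to 36212878) holds 16 listed genes: 7 rose, 1 was tested and not called, and 8 had too few counts. CCL4, an attractant for monocytes and T cells, stood at 0.587, 0.717 and 1.25 CPM at rest and 692, 645 and 822 CPM with LPS. This was the largest log2 change among genes above 5 CPM, 9.70 ± 0.18 (adjusted p = 8.98e-18), and the resting libraries had only 13, 13 and 27 counts. CCL3, a ligand of CCR1, went from 2.31 ± 0.736 to 481 ± 25.2 CPM. CCL4L2 and CCL3L3 are near-identical copies of CCL4 and CCL3, and they rose by 9.70 ± 0.16 and 6.50 ± 0.13 on the log2 scale. Reads cannot be divided between such copies with certainty, so the split within each pair is uncertain. CCL2, the ligand of CCR2, stood at 7.46, 4.80 and 4.18 CPM at rest and 83.4, 45.6 and 52.1 CPM with LPS (3.45 ± 0.36 on the log2 scale). CCL5, a chemokine for T cells, was already high at rest and rose by only 0.78 ± 0.10 on the log2 scale, from 195 ± 27.2 to 334 ± 27.8 CPM. CCL23 was at 6.597, 8.32 and 6.03 CPM at rest and 7.12, 7.44 and 7.08 CPM with LPS and was not called (adjusted p = 0.87). Outside the clusters, CCL20, the ligand of CCR6 on chromosome 2, went from 2.91 ± 0.968 to 526 ± 89.4 CPM.

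**Figure D3:**
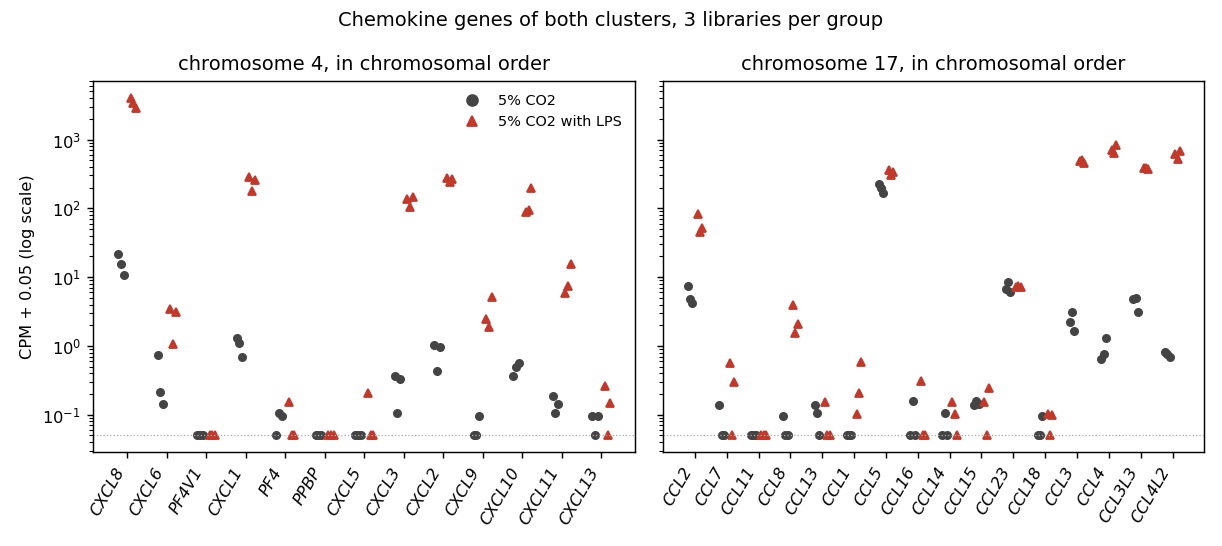
CPM + 0.05 (log scale) of the listed chemokine genes of chromosome 4 (left) and chromosome 17 (right) in chromosomal order; circles are the 3 resting libraries, triangles the 3 with LPS, and the dotted line marks 0 CPM. Strongly induced genes and genes with hardly any counts alternate within each cluster, and CCL5 and CCL23 differ from their neighbours in being well above 0 at rest and changing little.

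Every tested member of the NF-κB family and its inhibitors rose: 11 of 11, with a median log2 change of 2.88. NFKB1, which encodes the p50 subunit and its precursor, stood at 87.1, 75.1 and 77.5 CPM at rest and 811, 584 and 806 CPM with LPS (3.20 ± 0.12 on the log2 scale). NFKBIA, which encodes IκBα, the inhibitor that is degraded and then made again, stood at 85.9, 73.5 and 68.2 CPM at rest and 1350.4, 1213 and 1193 CPM with LPS (4.04 ± 0.12 on the log2 scale). NFKBIZ, a nuclear IκB protein needed for a subset of secondary genes, stood at 4.93, 4.96 and 4.87 CPM at rest and 877, 872 and 746 CPM with LPS. The NFKBIZ libraries hardly varied within a group and the log2 change was 7.40 ± 0.12 (adjusted p = 7.43e-19). The other members spanned a wide range, from NFKB2 (p100/p52) at 4.26 to RELA, the abundant p65 subunit, at 0.35; with library size alone 10 of the 11 were called. Both of these were chosen after their values were seen.

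The ubiquitin-editing proteins and other brakes on the pathway split. Of 23 tested, 9 rose and 2 fell, with a median log2 change of 0.10. The fallen count was 9 with library size alone (8 rose, median -0.07), 5 with the 6 libraries alone or the replicate block, and 4 without LPS replicate 1 or without 10% CO2 replicate 1 or 3. TNFAIP3, the ubiquitin editor A20, stood at 37.1, 29.99 and 24.97 CPM at rest and 2092, 1789.9 and 1429.9 CPM with LPS (5.85 ± 0.22 on the log2 scale, adjusted p = 1.14e-09). Its partners TNIP3 and TNIP1 went from 0.125 to 24.9 and 112 to 487 CPM. The other promoters printed belong to this group of inhibitors and subunits, to CCL20, and to MIR3142HG, a long RNA treated below: NFKBIA (chr14:35404750-35404849, minus), NFKB1 (chr4:102501259-102501358, plus), TNFAIP3 (chr6:137867159-137867258, plus), TNIP1 (chr5:151081035-151081134, minus), CCL20 (chr2:227813742-227813841, plus) and MIR3142HG (chr5:160468121-160468250, plus).
NFKBIA: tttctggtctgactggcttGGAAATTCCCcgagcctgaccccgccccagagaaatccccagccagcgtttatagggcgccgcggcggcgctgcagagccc
NFKB1: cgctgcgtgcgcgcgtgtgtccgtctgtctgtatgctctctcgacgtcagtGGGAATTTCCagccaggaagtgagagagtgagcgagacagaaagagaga
TNFAIP3: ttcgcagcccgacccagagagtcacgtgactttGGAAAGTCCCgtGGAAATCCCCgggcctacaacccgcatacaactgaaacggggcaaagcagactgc
TNIP1: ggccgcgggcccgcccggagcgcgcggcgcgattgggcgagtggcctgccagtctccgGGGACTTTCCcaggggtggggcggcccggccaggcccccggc
CCL20: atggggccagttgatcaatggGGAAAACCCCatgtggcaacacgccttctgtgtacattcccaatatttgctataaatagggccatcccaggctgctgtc
MIR3142HG: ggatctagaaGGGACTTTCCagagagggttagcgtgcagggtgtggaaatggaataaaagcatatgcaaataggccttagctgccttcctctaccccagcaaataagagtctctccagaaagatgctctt
TNFAIP3 has 2 separate matches, 67 and 55 bases before the start, and the other 5 windows have 1 each, at 81 (NFKBIA), 49 (NFKB1), 42 (TNIP1), 79 (CCL20) and 120 bases (MIR3142HG).

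Across all genes with a RefSeq promoter, the share with such a match followed the size of the rise. A promoter window was found for 11524 of the 15128 tested genes with a symbol, and the 250 bases before each start were searched on both strands. The NF-κB consensus was present in 29.4% of promoters of genes that rose at least 32-fold (25 of 85), 20.6% at 4-fold or more (80 of 389), 16.2% between 2- and 4-fold, and 11.9% of those that rose less. It was present in 11.8% of promoters of genes not called, 12.2% of those that fell at least 2-fold, 12% of all promoters of tested genes (1996 of 16631), and 9.96% of all 35116 RefSeq windows. The AP-1 letters TGANTCA were in 10.6% of promoters at 32-fold or more and 8.48% at 4-fold or more, against 4.55% of tested genes. The interferon response motif, GAAA and GAAA separated by any 2 bases, was in 5.66% at 4-fold or more against 2.54%. For the cAMP response letters TGACGTCA the shares were 2.06% and 2.39%, and for the serum response motif (CC, any base, TAT, any 2 bases, GG) 1.29% and 1.07%. Windows differ in base composition, with a median of 52.4% G and C at 32-fold or more and 64.4% over tested genes, and its part in these shares was not tested. These are descriptions without a test, and some genes contribute more than 1 window.

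Genes that carry the LPS signal showed mostly modest changes. Of 28 tested genes of the LPS sensing chain, 12 rose and 3 fell, with a median log2 change of 0.19 (9 and 7 with library size alone, median 0.02). TLR4, the receptor, stood at 29.2, 23.2 and 21.8 CPM at rest and 61.4, 54.4 and 42.4 CPM with LPS (1.09 ± 0.20 on the log2 scale, adjusted p = 0.00119). The adaptor MYD88 changed by 0.32 ± 0.09 on the log2 scale, from 63.3 ± 3.24 to 79.04 ± 7.57 CPM, and its call was lost without 5% CO2 replicate 3 (adjusted p = 0.0689), without 5% CO2 with LPS replicate 1 (0.0990) and with library size alone (0.214). TICAM1, which encodes the other adaptor TRIF, rose from 13.7 ± 1.30 to 76.7 ± 9.52 CPM, and IRAK2, a kinase that acts after MyD88, from 6.10 ± 0.604 to 152 ± 33.3 CPM. The ubiquitin ligase TRAF3 rose by 1.68 ± 0.10. TIRAP, the bridging adaptor of MyD88, was chosen after its values were seen and fell by 0.94 on the log2 scale. Among 21 other pattern receptors, 6 rose and 4 fell (7 fell with library size alone or the replicate block). TLR7, a sensor of single-stranded RNA, rose from 0.362 ± 0.197 to 15.6 ± 3.08 CPM, and TLR2, the lipopeptide receptor, from 80.4 ± 5.69 to 257 ± 13.7 CPM.

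Among hosts of regulatory RNAs, 8 of 18 rose and 1 fell (5 and 3 with library size alone, and 0 fell with DESeq2 or without resting or LPS replicate 3). MIR3142HG, the long RNA from which miR-146a is cut, stood at 0.316, 0.165 and 0.139 CPM at rest and 163, 98.6 and 136 CPM with LPS and had the fourth largest log2 rise, 9.26 ± 0.28. MIR155HG, the host of miR-155, stood at 6.24, 7.17 and 6.54 CPM at rest and 69.5, 69.7 and 92.3 CPM with LPS (3.54 ± 0.20 on the log2 scale). These micro RNAs are known regulators of the TLR pathway, and the 2 arms usually retained as guides are shown to identify them, with the seed (bases 2 to 8) in capitals, from RefSeq on GRCh38.p14. The miR-146a sequence lies at chr5:160485372-160485393 and that of miR-155 at chr21:25573983-25574006, both on the plus strand within the host gene.
hsa-miR-146a-5p: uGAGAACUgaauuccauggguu
hsa-miR-155-5p: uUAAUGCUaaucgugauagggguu
The mature micro RNAs are too short for these poly(A)-selected libraries and were not measured, so the values are for the host transcripts.

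Immediate early transcription factors, which are induced without new protein, rose for the most part. Of 27 tested 16 rose and 3 fell (5 fell with library size alone; median log2 change 1.39), and of 19 AP-1 and ATF factors 13 rose and 3 fell (median 0.56). EGR2 stood at 0.949, 1.05 and 0.557 CPM at rest and 90.4, 93.8 and 91.2 CPM with LPS, a log2 change of 6.76 ± 0.15. The 3 LPS libraries differed by only a few percent. EGR1 went from 16.8 ± 3.05 to 149 ± 37.6 CPM, and NR4A3, an orphan nuclear receptor, from 0.950 ± 0.189 to 59.5 ± 1.91 CPM. ATF3, a stress-induced repressor of cytokine genes, rose by 2.65 ± 0.16, and JUNB and MAFF by 2.60 ± 0.11 and 2.73 ± 0.19. FOS was a small change at this time: 25.8, 25.5 and 20.2 CPM at rest and 33.1, 31.9 and 30.8 CPM with LPS, 0.42 ± 0.13 on the log2 scale (adjusted p = 0.0261). The groups did not overlap, but the call was lost without 5% CO2 replicate 3 (adjusted p = 0.138), without 5% CO2 with LPS replicate 1 (0.0768) and with library size alone (0.159). MYC is also on the immediate early list and went the other way, as described below.

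Phosphatases that turn off MAP kinases and proteins that destroy cytokine mRNAs also changed. Of 12 tested DUSP phosphatases 6 rose and 2 fell (4 fell with library size alone). DUSP8, DUSP1 and DUSP16 rose by 4.48 ± 0.16, 3.23 ± 0.23 and 3.14 ± 0.16 on the log2 scale. Of 22 mRNA decay factors 9 rose (40.9%) and 4 fell (18.2%), against 11.8% and 13.1% of all genes tested. ZC3H12A, which encodes the ribonuclease regnase-1, stood at 12.97, 15.1 and 10.1 CPM at rest and 524, 529 and 528 CPM with LPS (5.38 ± 0.18 on the log2 scale). BTG2, which recruits the CCR4-NOT deadenylase, went from 24.97 ± 2.15 to 1185 ± 93.7 CPM. ZFP36, which encodes tristetraprolin and binds AU-rich elements of cytokine mRNAs, was at 82.6, 91.9 and 72.1 CPM at rest and 152, 169 and 135 CPM with LPS, a rise of 0.89 ± 0.11 on the log2 scale. Its relative ZFP36L2, chosen after its values were seen, fell by 1.67 on the log2 scale, from 476 to 150.0 CPM.

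**Figure D4:**
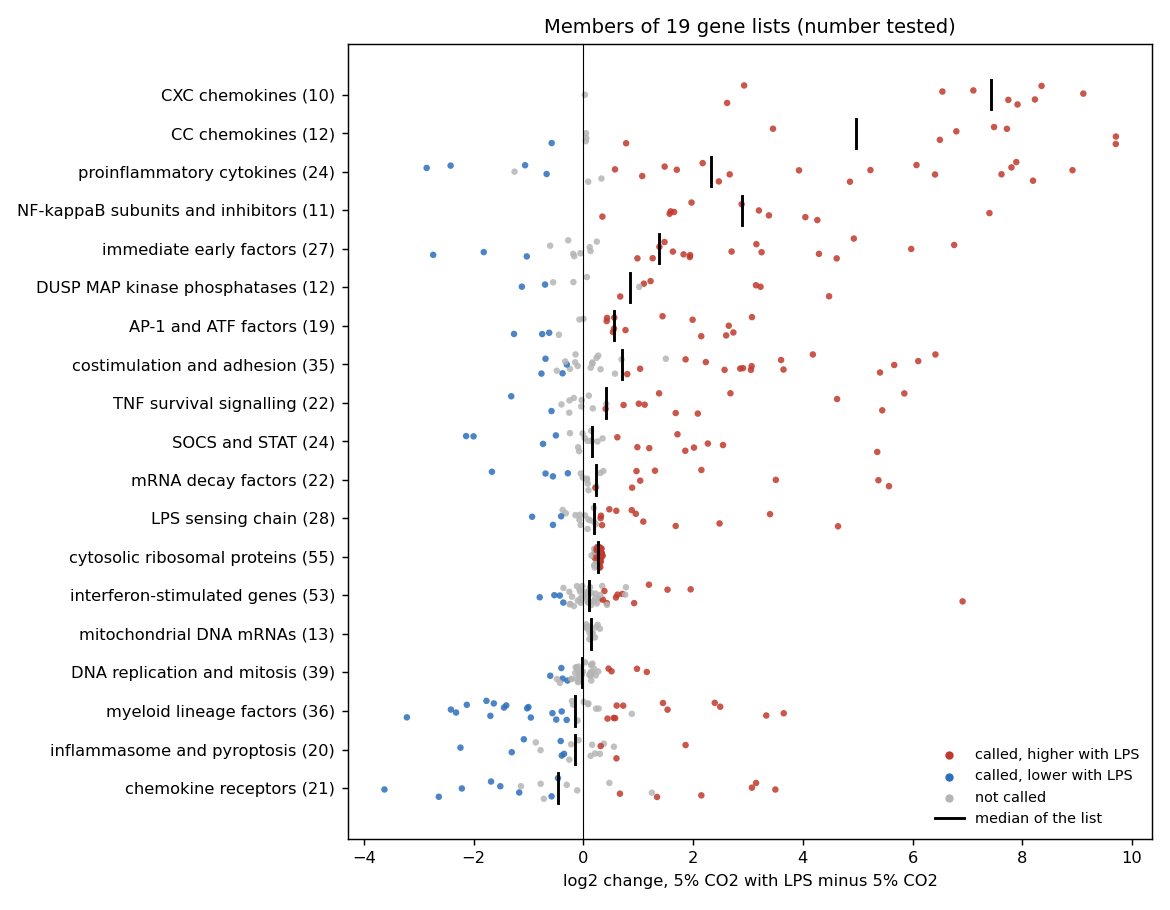
Log2 change (5% CO2 with LPS minus 5% CO2) of every tested member of 19 gene lists; red points were called higher, blue points called lower and grey points not called, black bars are list medians, and the number tested is in brackets. Chemokine points lie far to the right, ribosomal protein points in a narrow band just right of 0, and chemokine receptor and myeloid factor points on both sides.

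Interferon-stimulated genes changed in both directions. Of 53 tested, 11 rose (20.8%) and 4 fell (7.55%), against 11.8% and 13.1% of all genes tested. The other 38 were not called, and the median log2 change was 0.09. With library size alone 7 rose and 10 fell (median -0.08), and without 5% CO2 replicate 3, 2 fell. The list includes IFNB1, the gene of interferon-β itself, as 1 of the 11 that rose. IFIT2, an antiviral protein that binds RNA, stood at 9.08, 9.87 and 11.1 CPM at rest and 22.5, 21.4 and 24.8 CPM with LPS (1.19 ± 0.15 on the log2 scale), and OASL rose by 1.53 ± 0.17. TRIM21, an antibody receptor of the cytosol, fell by 0.80 (SE 0.11). Beside these, 4 of 5 guanylate-binding proteins, GTPases of cell-autonomous defence, rose: GBP2 went from 3.69 ± 0.448 to 41.5 ± 5.72 CPM. In the list of SOCS and STAT genes with their JAK and PIM kinases 9 of 24 rose and 4 fell, with a median log2 change of 0.15 (7 fell with library size alone, median -0.03). SOCS3, the inhibitor of interleukin-6 receptor signalling, stood at 7.32, 5.18 and 5.71 CPM at rest and 271, 213 and 266 CPM with LPS (5.36 ± 0.17 on the log2 scale). SOCS1 and CISH, chosen after their values were seen, went the other way, from 5.90 to 1.45 and 11.8 to 2.67 CPM.

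Receptors for chemokines and chemoattractants were the list with the lowest median, -0.46: of 21 tested, 8 fell and 6 rose. CCR2, the receptor that brings monocytes out of the bone marrow, stood at 237, 152 and 142 CPM at rest and 18.1, 17 and 7.92 CPM with LPS. The lowest resting library was more than 7-fold above the highest LPS library, and the log2 change was -3.63 ± 0.42 (adjusted p = 0.00021). CCR1, a receptor for CCL3 and CCL5, stood at 73.02, 54.6 and 44.3 CPM at rest and 10.1, 9.77 and 7.82 CPM with LPS (-2.64 ± 0.17 on the log2 scale). CXCR2 and CX3CR1, chosen after their values were seen, fell by 1.68 and 1.52 on the log2 scale. Those that rose included GPR84, a receptor of medium-chain fatty acids, from 3.41 ± 0.966 to 38.8 ± 8.23 CPM, and C3AR1, the complement C3a receptor, from 13.99 ± 0.946 to 117 ± 10.3 CPM. Ligand and receptor therefore moved in opposite directions for CCL2 with CCR2 and for CCL3 with CCR1.

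Cytokine receptors were mixed, with 12 of 37 higher (32.4%) and 8 lower (21.6%), against 11.8% and 13.1% of all genes tested. IL18RAP, the accessory chain of the interleukin-18 receptor, rose from 0.484 ± 0.246 to 20.1 ± 6.53 CPM, and TNFRSF9, the costimulatory receptor 4-1BB, from 0.273 ± 0.225 to 7.36 ± 1.55 CPM. TNFRSF1A, the main receptor of TNF, went the other way, at 119.8, 118 and 106 CPM at rest and 51.02, 56.03 and 49.5 CPM with LPS (-1.13 ± 0.09 on the log2 scale). The groups were well separated for TNFRSF1A although the change was close to 2-fold. Of 19 growth factors 10 rose. INHBA, the activin A subunit, rose from 0.0832 ± 0.0735 to 12.5 ± 1.98 CPM, BMP2 from 9.22 ± 1.29 to 36.8 ± 3.92 CPM and PDGFA from 5.42 ± 0.615 to 34.3 ± 6.58 CPM. The count of growth factors that fell was 2, and it was 0 or 1 without any 1 of the 6 libraries compared.

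Among lineage transcription factors of myeloid cells more members fell than rose. Of 36 tested, 16 fell and 11 rose, with a median log2 change of -0.15. NFE2, a bZIP factor of haematopoietic cells, stood at 20.97, 22.8 and 21.9 CPM at rest and 2.44, 2.69 and 1.92 CPM with LPS (-3.22 ± 0.19 on the log2 scale, adjusted p = 1.63e-10). CEBPA, the granulocyte and monocyte differentiation factor, GFI1, a repressor of myeloid progenitors, and MYB, the progenitor factor, were chosen after their values were seen. CEBPA went from 743 to 170.3 CPM (-2.13 on the log2 scale), GFI1 from 341 to 68.2 CPM (-2.32) and MYB from 402 to 124 CPM (-1.70). SPI1, which encodes PU.1 and was chosen in the same way, rose by 0.61, so the members did not share 1 direction. BCL6 and HIVEP1, zinc finger repressors, rose by 3.65 ± 0.18 and 3.33 ± 0.14. MYC stood at 294, 311 and 329 CPM at rest and 52.3, 39.4 and 48.2 CPM with LPS, a log2 change of -2.74 ± 0.11 (adjusted p = 1.99e-13), and was the most abundant gene per kilobase among the 15 largest falls at rest.

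The other large falls fell into no single list. PDK4, which restrains pyruvate dehydrogenase, went from 6.998 ± 1.71 to 0.835 ± 0.169 CPM, and THBD, the anticoagulant thrombomodulin, from 299 ± 25.7 to 55.3 ± 13.7 CPM. Beside them were the kinase inhibitor gene INKA1 (-3.21 ± 0.24), the uncharacterized C16orf54 (-2.93 ± 0.14), the homeobox gene DLX3 (-2.91 ± 0.26), the ligand gene WNT6 (-2.74 ± 0.23), the aggrecanase gene ADAMTS4 (-2.49 ± 0.27), the glycosyltransferase gene B3GNT8 (-2.49 ± 0.19) and the long RNA LINC02908 (-2.63 ± 0.17), all log2 changes ± SE. SERPINB2, which encodes the plasminogen activator inhibitor PAI-2, was low and fell: 5.15, 5.79 and 7.89 CPM at rest and 1.40, 1.91 and 1.57 CPM with LPS, -1.94 ± 0.24 on the log2 scale.

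Many surface and matrix genes of activated cells rose. Of 35 costimulation and adhesion genes 16 rose and 4 fell (2 fell with DESeq2 size factors and 7 with library size alone; 2 also without 5% CO2 replicate 1, 5% CO2 with LPS replicate 1 or 3, 10% CO2 replicate 2, or any 1 library of 10% CO2 with LPS). ICAM1, the adhesion ligand of leukocyte integrins, stood at 7.95, 5.57 and 4.78 CPM at rest and 369, 259.8 and 303 CPM with LPS (5.66 ± 0.20 on the log2 scale). CD83, a marker of mature dendritic cells, and CD40, the costimulatory receptor, rose from 9.41 to 399 and 14.98 to 125 CPM. Of 25 matrix protease and hyaluronan genes 8 rose and 1 fell (3 fell with library size alone and 2 with the 6 libraries alone). TNFAIP6, a hyaluronan-binding protein known as TSG-6, stood at 0.542, 0.331 and 0.464 CPM at rest and 270.1, 220.2 and 363 CPM with LPS (9.28 ± 0.29 on the log2 scale), the third largest rise. In the coagulation and plasminogen list 9 of 19 rose and 2 fell, with SERPINE2, a thrombin inhibitor, up from 6.15 ± 0.507 to 126 ± 39.1 CPM. Among prostaglandin and leukotriene genes 6 of 16 rose and 0 fell. PTGS2, which encodes cyclooxygenase-2, stood at 2.35, 2.26 and 2.78 CPM at rest and 219, 163 and 134 CPM with LPS (6.12 ± 0.19 on the log2 scale), and the prostaglandin E2 receptors PTGER4 and PTGER2 rose by 2.97 ± 0.17 and 3.98 ± 0.47. PTX3, an acute phase pentraxin, went from 13.1 ± 2.32 to 899.7 ± 263 CPM. In all, 4 of 17 complement and acute phase genes rose (23.5%) and 1 fell (5.88%), against 11.8% and 13.1% of all genes tested. The fallen count was 0 with DESeq2, without resting replicate 1 or 2, and without LPS replicate 2 or 3. Of 27 scavenger and phagocytic receptors 4 rose and 3 fell (7 fell with library size alone), shares near those of all genes. OLR1, the oxidized LDL receptor, and FCAR, the receptor for IgA, rose from 0.374 to 11.6 and 0.766 to 14.8 CPM.

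In metabolism, the mitochondrial antioxidant and iron storage genes stood out by level. SOD2 stood at 82.2, 68.9 and 75.6 CPM at rest and 7657, 5759 and 7756 CPM with LPS, 6.54 ± 0.14 on the log2 scale (adjusted p = 4.86e-16). It ranked 5 by CPM with LPS and ranked 97 by CPM per kilobase, since its gene model is 18985 bases of exon long. FTH1, the ferritin heavy chain, stood at 783, 540.3 and 568 CPM at rest and 3317, 2441 and 3185 CPM with LPS (2.24 ± 0.18 on the log2 scale), and FTL, the light chain, rose by 0.67 ± 0.11. Of 30 immunometabolic genes 17 rose and 2 fell. GCH1, the first enzyme of tetrahydrobiopterin synthesis, and the sugar transporter gene SLC2A6 rose from 4.94 to 94.5 and 9.34 to 389.6 CPM. ACOD1, which makes itaconate, was rare, at 0, 0 and 0.0928 CPM at rest and 4.52, 1.71 and 4.18 CPM with LPS. NFE2L2, which encodes the oxidative stress factor NRF2, rose from 113 ± 5.57 to 649.8 ± 27.8 CPM, while 8 of 22 members of the list of NRF2 targets and metallothioneins rose and 1 fell (5 rose without 5% CO2 replicate 2 or with library size alone, and 4 without 5% CO2 with LPS replicate 3).

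Of 22 TNF survival signalling genes 11 rose and 2 fell (4 fell with library size alone). IER3 went from 1.04 ± 0.513 to 60.04 ± 3.97 CPM and BIRC3, the ubiquitin ligase cIAP2, from 1.69 ± 0.367 to 74.7 ± 5.70 CPM. Of the 5 tested BCL2 family survival genes 2 rose, 0 fell and 3 were not called, with a median log2 change of 0.10. BCL2A1, a short-lived relative of BCL2, rose from 2.83 ± 0.519 to 75.3 ± 13.1 CPM and MCL1 by 0.93 ± 0.10. Of the 10 tested BCL2 family genes that promote death, 4 rose and 1 fell, with BCL2L11 (BIM) up by 1.51 ± 0.14 and PMAIP1 (NOXA) by 1.27 ± 0.10. In the inflammasome and pyroptosis list 3 of 20 rose (15%) and 6 fell (30%), against 11.8% and 13.1% of all genes tested. The fallen count was 3 without 5% CO2 replicate 1 or 5% CO2 with LPS replicate 3, and 11 with library size alone. NLRC4, a sensor of bacterial flagellin, fell from 2.75 ± 0.237 to 0.580 ± 0.193 CPM, and TXNIP, a thioredoxin-binding protein, stood at 1109, 1061 and 1080.2 CPM at rest and 477, 451 and 603 CPM with LPS (-1.09 ± 0.10 on the log2 scale). NINJ1, which ruptures the membrane of dying cells, rose from 84.5 ± 17.5 to 307 ± 57.5 CPM. IL1B therefore rose in cells where NLRP3, chosen after its values were seen, fell by 0.41 on the log2 scale and CASP1 was not called (-0.09).

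Housekeeping programmes changed little, and their small shifts depend on scaling. Of 55 cytosolic ribosomal protein genes 46 rose, by a median of 0.27 on the log2 scale, but with library size alone 0 did (median 0.10), 18 did without resting replicate 3, 28 without LPS replicate 1, and 18 without LPS replicate 3. EEF1A1, the translation elongation factor and the most abundant transcript of both groups by CPM, rose by 0.42 ± 0.09. Of 19 HLA and antigen processing genes 8 rose, 42.1% against 11.8% of all genes tested. The count was 4 with library size alone and 5 without 5% CO2 with LPS replicate 3, and HLA-B rose by 0.65 ± 0.10. Among 20 heat shock chaperones 6 rose, a share of 30% (4 with library size alone, 10 without 10% CO2 with LPS replicate 2). The 13 mitochondrial mRNAs had a median log2 change of 0.13 (-0.04 with library size alone) and 0 of them were called by edgeR or DESeq2, while 1 had an unadjusted p under 0.05 with edgeR. ACTB and GAPDH, often used as references, changed by 0.19 ± 0.07 and 0.24 ± 0.10 and were not called (adjusted p = 0.0687 and 0.0815); GAPDH was called in 5 of the other settings tried and ACTB in 3.

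Growth and stress programmes were likewise mixed. Of 39 DNA replication and mitosis genes 4 rose and 4 fell (10.3% each), near the 11.8% and 13.1% of all genes tested. Without 5% CO2 replicate 3 or 5% CO2 with LPS replicate 1, 2 fell, and with library size alone 11 fell. CCND1 and CCNE2, the cyclins D1 and E2, rose by 1.16 ± 0.10 and 0.98 ± 0.13, and the mitotic kinase gene AURKA fell by 0.61 (SE 0.11). Of 24 p53 target genes 9 rose (37.5%) and 2 fell (8.33%). The fallen count was 1 without resting replicate 3 or LPS replicate 1. Of 26 sterol genes 6 rose (23.1%) and 3 fell (11.5%). With library size alone 3 rose. A single sterol gene fell without the filter, without resting replicate 2, without LPS replicate 1 or 3, and without replicate 1 of 10% CO2 with LPS. Of 20 integrated stress response genes 10 rose and 3 fell. PPP1R15A, the phosphatase subunit GADD34 that restores translation, stood at 36.5, 34.2 and 25.9 CPM at rest and 856, 832 and 677 CPM with LPS (4.62 ± 0.19 on the log2 scale). XBP1, the factor of the unfolded protein response, went from 261 ± 13.7 to 764 ± 42.8 CPM, and PLK3, a p53-responsive kinase, from 12.9 ± 2.10 to 42.4 ± 5.86 CPM.

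Called genes tended to be short in both directions. Among 13234 protein-coding genes tested, the median genomic span was 32.2 kb, against 17.4 kb for genes that rose at least 4-fold, 9.48 kb at 32-fold or more, and 14.4 kb for genes that fell at least 2-fold. Under 5 kb, 7.86% of 1133 genes rose at least 2-fold and 6.27% fell at least 2-fold. Over 100 kb, the shares were 3.27% and 1.16% of 2506 genes. Median exon length was 2152 bases in the shortest class and 8288 in the longest, and the median level 17.03 and 22.1 CPM. This is a description, since span was not varied and expression level differed between the span classes, though not in the order of span. Level also differed with the size of change. Genes that rose at least 32-fold had a median of only 0.387 CPM at rest, and those that fell at least 2-fold 7.74 CPM. By annotated class, 12.3% of protein-coding genes rose and 14.3% fell, against 10.6% and 8.81% of 1929 long non-coding RNA genes.

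**Figure D5:**
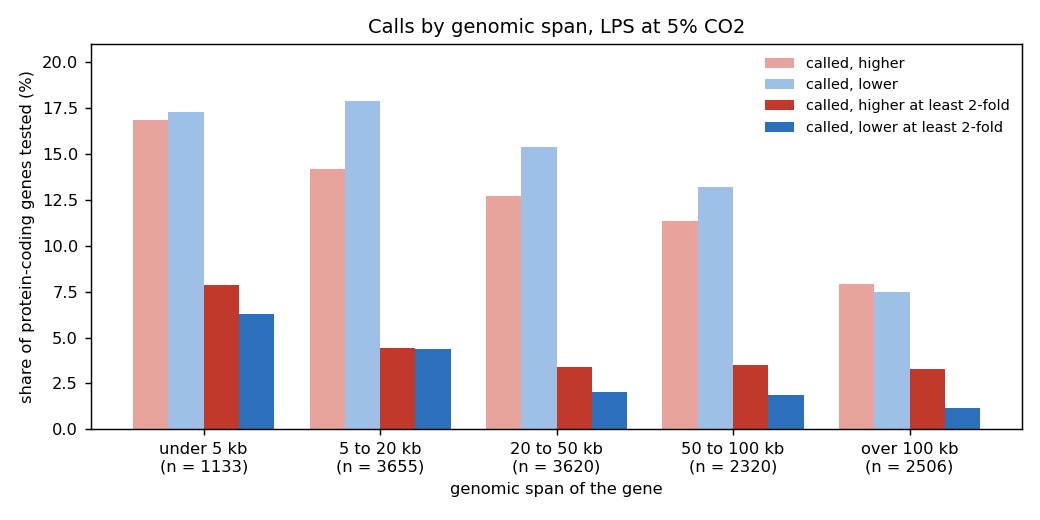
Share of protein-coding genes called higher or lower (pale bars) and called with at least a 2-fold change (dark bars), by genomic span, with the number tested under each class. All 4 shares are lower over 100 kb than under 5 kb; for falls of at least 2-fold they go from 6.27% to 1.16%.

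At 10% CO2, where separate libraries were used on both sides, LPS gave 5773 calls (35.2% of genes tested). Of the 4092 genes called at 5% CO2, 3524 were also called there (86.1% of the 5% list and 61.0% of the 10% list), and all 3524 had the same sign. Among the 430 genes that rose at least 4-fold at 5% CO2, 304 (70.7%) had a larger log2 change at 10% CO2, with medians of 3.29 at 5% and 3.82 at 10%; these genes were selected on the 5% CO2 libraries, and the share carries no test. The test of the difference itself called 4 genes (0.0244%) by edgeR, while 989 had an unadjusted p under 0.05. These 4 were HIVEP2, CD44, STARD4 and PDGFA, each with a smaller rise at 5% than at 10% CO2; the count was 1 to 37 with 1 library left out (37 without LPS replicate 3 at 5% CO2 and 26 without replicate 1 of 10% CO2), and the calls of CD44, STARD4 and PDGFA held in 7, 6 and 6 of 17 alternative settings. HIVEP2, a zinc finger factor that binds κB-like motifs, stood at 40.3, 41.5 and 43.4 CPM at rest and 121, 102 and 139 CPM with LPS at 5% CO2, and at 33.2, 27.2 and 30.4 CPM and 198, 195 and 198 CPM at 10% CO2. The LPS effect differed by 1.17 ± 0.14 on the log2 scale.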

How the data were processed

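Gene expression in THP-1 cells was measured by paired-end sequencing of poly(A)-selected RNA, in 12 libraries, 3 per group. The authors deposited raw counts per Ensembl gene, 1 table per library, made with Trimmomatic 0.36, STAR 2.5.2b and featureCounts of Subread 1.5.2 on GRCh38, per the submitters' processing notes. No source used here gives the annotation release, the strand setting or the treatment of multi-mapping reads, so near-identical copies (CCL4 and CCL4L2, CCL3 and CCL3L3) and overlapping or antisense genes are uncertain. Positions and exon lengths are those of the deposited tables, symbols came from a gene name table (40899 of 57500 identifiers, 99.1% of counts; SOD2 was named by its coordinates) and gene classes from GENCODE; 0 count columns were left out.

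Genes were kept by edgeR's filterByExpr over the 4 groups (16402 genes), scaled by TMM and fitted with edgeR 4.0.16 (R 4.3.3, limma 3.58.1) by quasi-likelihood, 1 coefficient per group and all 12 libraries sharing the estimate of spread. P-values were adjusted by the Benjamini-Hochberg method over all genes tested and called under 0.05; errors beside log2 changes are SEs of the fit and those beside CPM are SDs (n = 3). The common biological coefficient of variation was 10.7%, and counts of replicates differed by more than sampling noise, so all 3 per group were kept. Counting floors cover counting error only. The pipeline was tested on simulated data with rises and falls of up to 4-fold. That simulation covers neither the larger rises seen here nor the dependence of small changes on scaling. Alternatives were DESeq2 1.42.0, its size factors in edgeR, no low-count filter, the 6 libraries alone, a replicate block, each library left out, and library size alone, which was chosen after seeing the data.

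Members and lists were chosen with earlier results of these data known. Genes were named by rule: the 15 largest rises and falls among called genes with at least 5 CPM in the higher group, a symbol and no overlap between groups; the 10 largest rises in CPM; the 3 called members of each list with the smallest p, and a set of well-known LPS genes; the genes of both chemokine clusters; and up to 5 genes with a different LPS effect at 10% CO2. Others are marked in the text as chosen after their values were seen.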

Additional observations from a re-analysis of the deposited data

Results flagged for a closer look

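The LPS effect differed between 10% and 5% CO2 for 4 genes by the test of that difference itself (edgeR, adjusted over 16402 genes); n = 3 libraries per group throughout. HIVEP2 rose from 41.7 ± 1.54 to 121 ± 18.1 CPM at 5% CO2 and from 30.2 ± 3.00 to 197 ± 1.39 CPM at 10% CO2, a difference of 1.17 on the log2 scale (adjusted p = 0.00255) that was called in 17 of 17 alternative settings. CD44, the hyaluronan receptor, rose from 115 ± 14.8 to 235 ± 28.3 CPM at 5% and from 79.9 ± 11.4 to 367 ± 56.7 CPM at 10% CO2, a difference of 1.17 (adjusted p = 0.0460) that was called in 7 of 17 settings. STARD4, a sterol transfer protein, rose from 19.1 ± 1.07 to 66.6 ± 5.30 CPM at 5% and from 14.4 ± 0.259 to 94.7 ± 14.6 CPM at 10% CO2, a difference of 0.92 (adjusted p = 0.0460) that was called in 6 of 17 settings. PDGFA, a growth factor for mesenchymal cells, rose from 5.42 ± 0.615 to 34.3 ± 6.58 CPM at 5% and from 3.35 ± 0.292 to 53.4 ± 7.01 CPM at 10% CO2, a difference of 1.33 (adjusted p = 0.0460) that was called in 6 of 17 settings. The largest adjusted p over the settings was 0.0189 for HIVEP2 and 0.239 for each of the other 3. The mean of each of the 4 genes was lower at 10% than at 5% CO2 without LPS and higher with it.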

How the results depend on the processing

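The main limits are scaling and small changes. With library size alone, 5398 genes were called, 1172 higher and 4226 lower, and 168 rather than 96 were lower past 2-fold; the cause was not tested. The other alternatives gave 3893 to 4622 calls, with 4622 under the replicate block and 595 against 577 past 2-fold. Same-numbered libraries with and without LPS correlated at 0.602, 0.0825 and 0.286 over 10811 genes, and differently numbered ones at -0.452 to 0.162. Each resting library correlated best with the LPS library of its number, but LPS replicate 2 correlated better with resting replicate 3 (0.162). These values do not settle whether the numbers pair the samples. The main fit took no account of the numbers, while the replicate block did. Leaving out 1 library gave 3116 to 4371 calls (1476 to 2087 higher, 1640 to 2284 lower) and 519 to 586 past 2-fold (431 to 490 higher, 87 to 99 lower). The count of 4 genes with a different LPS effect at 10% CO2 was 1 with size factors, 2 with library size alone, 108 without the filter, 11 with the block and 53 with DESeq2, and 1 to 37 with 1 library left out (37 without 5% CO2 with LPS replicate 3, 26 without 10% CO2 replicate 1); the cause was not tested. The difference in mitochondrial mRNA share, -0.0192 percentage points, ranged from -0.150 to 0.172 with 1 library left out. Of 148 called genes named by rule, 142 stayed called with the same sign in every alternative that tested them (IFNB1 was not tested with the 6 libraries alone) and 6 lost the call in at least 1: FOS and MYD88 as given above, and RPL15, RPL6, RPS4X and YBX1 with library size alone (adjusted p = 0.0539, 0.0670, 0.117 and 0.141). None of the 152 genes named by rule and tested reversed direction while called. Of 1440 recomputed list counts 1361 were within 1.5 times the original, and 11 list medians changed sign with library size alone.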

Other observations

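Genes named ZNF, which mostly encode zinc finger proteins, were counted after a pattern among them was noticed in these data, with no test. Of 502 tested, 198 fell (39.4%) and 12 rose (2.39%), with a median log2 change of -0.33, against 12.3% and 12.1% of the other 15900 genes. On chromosome 19, where many such genes lie in clusters, 87 of 244 fell (35.7%) and 2 rose. Their median resting level was 11.8 CPM, against 15.9 CPM for the other genes.

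Several strongly changed genes lay outside the lists and the naming rule and were chosen after their values were seen. CCN2, a matricellular growth factor, changed by 6.66 ± 0.13 on the log2 scale, and RASGEF1B, a guanine nucleotide exchange factor for RAP proteins, by 6.29 ± 0.31. PDE4B, which degrades cyclic AMP, and RCAN1, an inhibitor of calcineurin, changed by 4.17 ± 0.16 and 4.16 ± 0.21. DRAM1, a lysosomal membrane protein, changed by 4.48 ± 0.16. Among genes that fell were the retinoic acid receptor gene RARA (-1.91 ± 0.16), the haematopoietic factor gene GATA2 (-1.08 ± 0.12), and PIK3R1 and PIK3CG, subunits of phosphoinositide 3-kinases (-1.34 ± 0.13 and -1.21 ± 0.13).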
